A study of Mus musculus with 2 samples.

Results

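The histone deacetylase family was described across 10 members, Hdac1, Hdac2, Hdac3, Hdac4, Hdac5, Hdac6, Hdac7, Hdac8, Hdac10 and Hdac11. They were taken by gene symbol from the 43346 gene rows of the deposited tables, together with their 86 transcripts. The samples were erythroblasts, precursors of red blood cells that still hold a nucleus, taken as primary cells from adult male C57BL/6J mice 5 to 6 weeks old, and the title of the linked isolation protocol names bone marrow. Total RNA was sequenced in 2 libraries, with 1 ng of input and spike-ins in each, and no treatment or genotype other than the strain is given in the labels. Per the labels these are biological replicates 1 and 2, with separate biosamples under a single donor entry. Whether the cells came from separate animals is not stated, so the spread between the libraries may be technical. Both libraries form 1 group, and no condition was compared.

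Histone deacetylases remove acetyl groups from lysines of histones and other proteins, and are best known as the catalytic subunits of corepressor complexes. Class I, IIa, IIb and IV enzymes hold a zinc ion in the active site, whereas the sirtuins (class III) use NAD+. In the erythroid lineage, class I enzymes work with factors such as GATA1 and GFI1B through the NuRD and CoREST complexes. Deacetylation also accompanies the condensation of chromatin that precedes the loss of the nucleus, and in cultured mouse erythroblasts both Hdac2 and Hdac6 have been tied to that late step.

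Class IIa differs from the other classes at a codon of the active site. Class I, IIb and IV enzymes have a catalytic tyrosine there, and vertebrate class IIa enzymes have a histidine in its place, which leaves them weakly active on acetylated lysine. The coding stretch around this codon is shown, since the levels below are compared by class. It is given for the highest class I members, the 3 class IIa members described here and both catalytic domains of Hdac6. Each run is 57 bases of the coding strand, 5′ to 3′, on mm10 with the GENCODE M21 annotation. Capitals mark the codon for the tyrosine or histidine.
Hdac1, tyrosine: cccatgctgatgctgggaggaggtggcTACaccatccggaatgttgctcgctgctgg
Hdac2, tyrosine: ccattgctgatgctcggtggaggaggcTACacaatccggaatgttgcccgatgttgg
Hdac4, histidine: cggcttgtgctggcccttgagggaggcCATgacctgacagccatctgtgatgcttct
Hdac5, histidine: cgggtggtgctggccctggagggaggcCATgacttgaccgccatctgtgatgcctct
Hdac7, histidine: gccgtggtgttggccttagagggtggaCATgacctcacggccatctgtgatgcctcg
Hdac6, first domain, tyrosine: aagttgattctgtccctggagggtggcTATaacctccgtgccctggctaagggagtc
Hdac6, second domain, tyrosine: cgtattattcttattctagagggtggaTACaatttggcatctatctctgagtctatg

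These stretches lie at chr4:129518874-129518930 (minus strand, exon 9 of 14) for Hdac1 and at chr10:36997030-36997086 (plus strand, exon 9 of 14) for Hdac2. In class IIa they lie at chr1:91945933-91945989 (exon 24 of 27) for Hdac4, chr11:102196572-102196628 (exon 22 of 25) for Hdac5 and chr15:97796131-97796187 (exon 21 of 24) for Hdac7, all on the minus strand. The Hdac6 runs span an intron each, within chrX:7938457-7939463 for the first domain and chrX:7932202-7934192 for the second, on the minus strand. The codon in capitals is CAT in the 3 class IIa members shown, and TAC or TAT in the 4 runs of the other classes. Hdac3, Hdac8, Hdac10 and Hdac11 also carried a tyrosine codon at this place in their coding transcripts.

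The libraries held 80806663 and 117032607 expected counts (estimated reads per gene, with reads that match several places shared out). Nuclear protein-coding genes took 5.44% of these in replicate 1 and 5.82% in replicate 2, so the depth behind the values given here was 4393962 and 6815842 counts. Levels are therefore given as rescaled TPM, the deposited TPM (abundance per transcript length) rescaled to sum to 1000000 over the 21461 nuclear protein-coding genes. The deposited TPM has 2 decimals, so its last digit is worth 0.214 rescaled TPM in replicate 1 and 0.196 in replicate 2. Values of a replicate are given as replicate 1 and then replicate 2, and means carry the SD of n = 2 libraries. A gene is called detected at a rescaled TPM of 1 or more in both libraries.

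All 12 erythroid markers were detected, with a summed level of 450376 and 446934 rescaled TPM. Most of that sum lay in globin genes, with Hba-a2 at 153025 and 146050 and Hbb-bs at 145781 and 153043. Hbb-bt had 73062 and 74612, and Hba-a1 had 65371 and 60669. Slc4a1, the highest of the other erythroid markers, had 5562 and 5083. All 12 neutrophil markers were detected too, with a sum of 43576 and 45962, as were all 11 monocyte and macrophage markers with a sum of 4591 and 4889. The 6 basophil, mast cell and eosinophil markers summed to 833 and 686, and the 5 megakaryocyte markers to 85.5 and 111.0. Of 6 B lineage markers 3 were detected, with a sum of 261 and 259 of which Ighm held 248 and 239. Of 6 T and NK markers 3 were detected, with a sum of 120 and 137 of which Nkg7 held 108 and 126, while Cd3d and Cd8a were at 0. The part of these other cells in the deacetylase levels was not tested. In such bulk libraries, fewer cells of a type and less RNA per cell cannot be told apart.

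Of the 10 members, 7 were detected, and 42.9% of all nuclear protein-coding genes reached the same level. Hdac8, Hdac10 and Hdac11 were the exceptions, each falling under 1 in a single library. On the deposited TPM, where the same threshold is far stricter, 3 members and 14.5% of genes reached 1 in both libraries. The family summed to 177 and 156 rescaled TPM, with a median member at 8.77 and 4.31 beside a median of 0.642 and 0.392 over all nuclear protein-coding genes. The 3 highest members, Hdac1, Hdac2 and Hdac3, held 78.0% of the family's TPM in replicate 1 and 85.5% in replicate 2. Of the family's expected counts, 944 in replicate 1 and 1448 in replicate 2, they held 70.2% and 81.7%.

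Hdac2 (ENSMUSG00000019777, chr10:36974544-37001889, plus strand) had the highest level of the family. With Hdac1 it forms the catalytic pair of the NuRD, Sin3, CoREST and MiDAC complexes. Its rescaled TPM was 64.4 in replicate 1 and 52.2 in replicate 2, from 242 and 413 expected counts, and its mean was 58.3 ± 8.63. Hdac1 (ENSMUSG00000028800, chr4:129516104-129542713, minus strand) stood at 46.8 and 41.8, from 263 and 408 counts, with a mean of 44.3 ± 3.58. The lower library of Hdac2 stood above the higher library of Hdac1, and the ratio of Hdac2 to Hdac1 was 1.37 and 1.25 per length. By expected counts, which take no account of length, that ratio was 0.920 and 1.01. Both genes stood above 90.5% of nuclear protein-coding genes in each library.

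Hdac3 (ENSMUSG00000024454, chr18:37935844-37955016, minus strand), the catalytic subunit of the NCoR complex, stood at 26.7 and 39.4 rescaled TPM, from 158 and 362 counts (mean 33.1 ± 8.97). It was above 86.2% of nuclear protein-coding genes in replicate 1 and 90.1% in replicate 2. Its range stayed below that of Hdac1, by a small margin in replicate 2. Hdac8 (ENSMUSG00000067567, chrX:102284639-102505359, minus strand), the class I member that works outside these complexes and deacetylates the cohesin subunit SMC3, was far lower at 0.855 and 7.45, from 6 and 37 counts. Class I thus held the 3 highest members and also a member that was not detected by the rule used.

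Among the class IIa enzymes, which shuttle between nucleus and cytoplasm and repress MEF2 factors, Hdac5 (ENSMUSG00000008855, chr11:102194432-102230166, minus strand) stood at 10.5 and 3.73 rescaled TPM, from 48 and 55 counts (mean 7.10 ± 4.77). Hdac7 (ENSMUSG00000022475, chr15:97792664-97844502, minus strand) stood at 8.34 and 3.14, from 74 and 62 counts (mean 5.74 ± 3.68). Hdac4 (ENSMUSG00000026313, chr1:91928779-92195699, minus strand) stood at 4.70 and 3.14, from 101 and 43 counts (mean 3.92 ± 1.11). All 3 were detected, all 3 were higher in replicate 1, and their ranges overlapped one another. Each of them lay below the lower library of Hdac3.

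In class IIb, Hdac6 (ENSMUSG00000031161, chrX:7930120-7947889, minus strand), a cytoplasmic enzyme that deacetylates tubulin, stood at 9.20 and 4.90 rescaled TPM, from 31 and 66 counts (mean 7.05 ± 3.04). Hdac10 (ENSMUSG00000062906, chr15:89123307-89128700, minus strand), a polyamine deacetylase, stood at 1.497 in replicate 1, from 8 counts, and had 0 counts in replicate 2. A working bound of 3 counts for a count of 0 is 0.289 rescaled TPM for Hdac10 in replicate 2. The deposited interval there, around the posterior mean, lay above this bound at 0.294 to 1.72. The only class IV member, Hdac11 (ENSMUSG00000034245, chr6:91156665-91174692, plus strand), known as a remover of fatty acyl groups, stood at 3.85 and 0.196, from 13 and 2 counts. Hdac10 and Hdac11 thus rested on at most 13 counts a library.

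Ordered by mean level, the members ran Hdac2, Hdac1, Hdac3, Hdac5, Hdac6, Hdac7, Hdac8, Hdac4, Hdac11 and Hdac10. Taken as the 2 values of each gene, the ranges did not overlap between Hdac2 and Hdac1 or between Hdac1 and Hdac3. They did not overlap between Hdac3 and Hdac5 either, where the mean dropped 4.66-fold. From Hdac5 down, every neighbouring pair overlapped. Farther apart in that order, Hdac6 lay above Hdac4 and Hdac11 without overlap, and Hdac4, Hdac5, Hdac6 and Hdac7 each lay above Hdac10. The first 3 places were the same in both libraries by rescaled TPM and by its posterior mean. By expected counts, Hdac1 led in replicate 1 and Hdac2 in replicate 2.

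**Figure D1:**
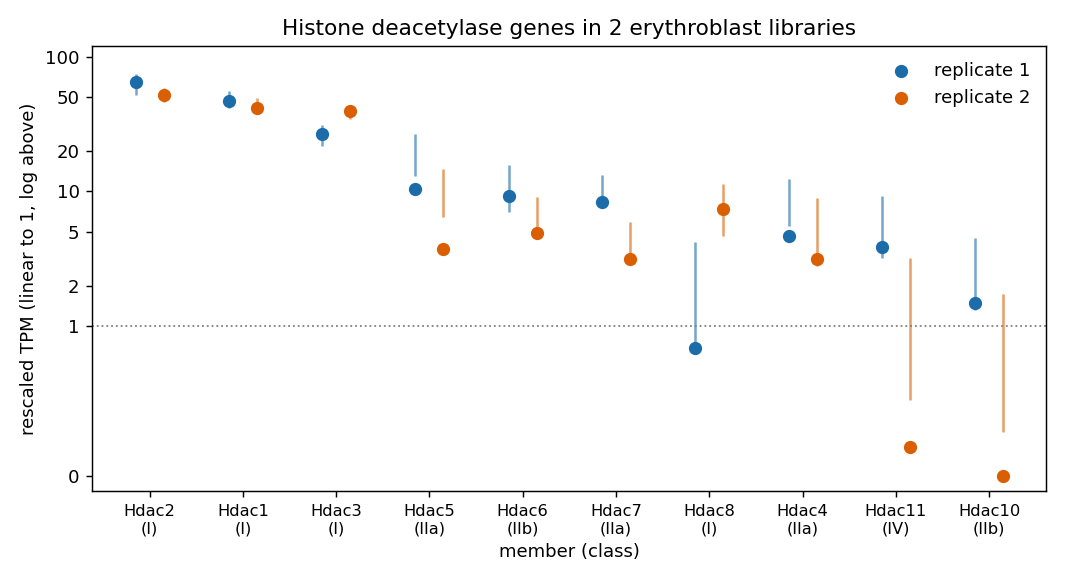
Level of each histone deacetylase gene in the 2 erythroblast libraries, in rescaled TPM on an axis that is linear to 1 and logarithmic above. Points are the rescaled TPM of replicates 1 and 2, vertical lines the deposited interval around the posterior mean on the same scale, and the dotted line the detection level of 1. Hdac2, Hdac1 and Hdac3 sit between 26.7 and 64.4 and all other members at 10.5 or below.

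Beside TPM, the authors deposited a posterior mean of TPM with an interval whose level is not given in the sources used here. On the rescaled axis this interval was 52.3 to 74.1 and 46.3 to 58.8 for Hdac2, 41.9 to 55.7 and 39.2 to 49.7 for Hdac1, and 21.6 to 31.2 and 34.3 to 43.4 for Hdac3. The intervals of Hdac3 in the 2 libraries did not overlap, and those of Hdac2 and Hdac1 did within each gene. Between genes, the intervals of Hdac2 and Hdac1 overlapped in both libraries, and those of Hdac1 and Hdac3 in replicate 2 only. The interval of Hdac5 in replicate 1, 13.0 to 26.9, overlapped that of Hdac3. For low members the point estimate often lay outside its own interval. It was under the lower bound for 2 members in replicate 1 (Hdac4 and Hdac5) and for 4 members in replicate 2 (Hdac5, Hdac7, Hdac10 and Hdac11). Hdac5, for example, had a posterior mean of 19.8 and 10.4 rescaled TPM, against point estimates of 10.5 and 3.73.

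Class values cover only the members described here, with Hdac4, Hdac5 and Hdac7 standing for class IIa. By class, class I summed to 139 and 141 rescaled TPM, class IIa to 23.5 and 10.0, class IIb to 10.7 and 4.90, and class IV to 3.85 and 0.196. Class I thus held 78.5% of the family in replicate 1 and 90.3% in replicate 2 (84.4 ± 8.37%), and class IIa held 13.3% and 6.42% (9.86 ± 4.87%). Class IIb held 6.05% and 3.14% (4.60 ± 2.05%), and class IV held 2.18% and 0.126% (1.15 ± 1.45%). By rescaled TPM the sum of class I was nearly equal in the libraries, and the sums of the other 3 classes were lower in replicate 2. By counts scaled to 1000000 nuclear protein-coding counts, class I had 152 and 179 and class IIb 8.88 and 9.68, so class IIb was then higher in replicate 2.

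The ratio of class I to class IIa was 5.90 in replicate 1 and 14.1 in replicate 2, which is 2.56 and 3.82 on the log2 scale (3.19 ± 0.89). Divided by the number of members described in each class, 4 and 3, the ratio was 4.43 and 10.6. By expected counts class I held 70.9% and 84.2% of the family and class IIa 23.6% and 11.1%, a ratio of 3.00 and 7.62. Class I was the higher in both libraries by either measure. With 2 libraries the smallest two-sided exact p of a sign test is 0.5, so the difference between classes was not tested.

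**Figure D2:**
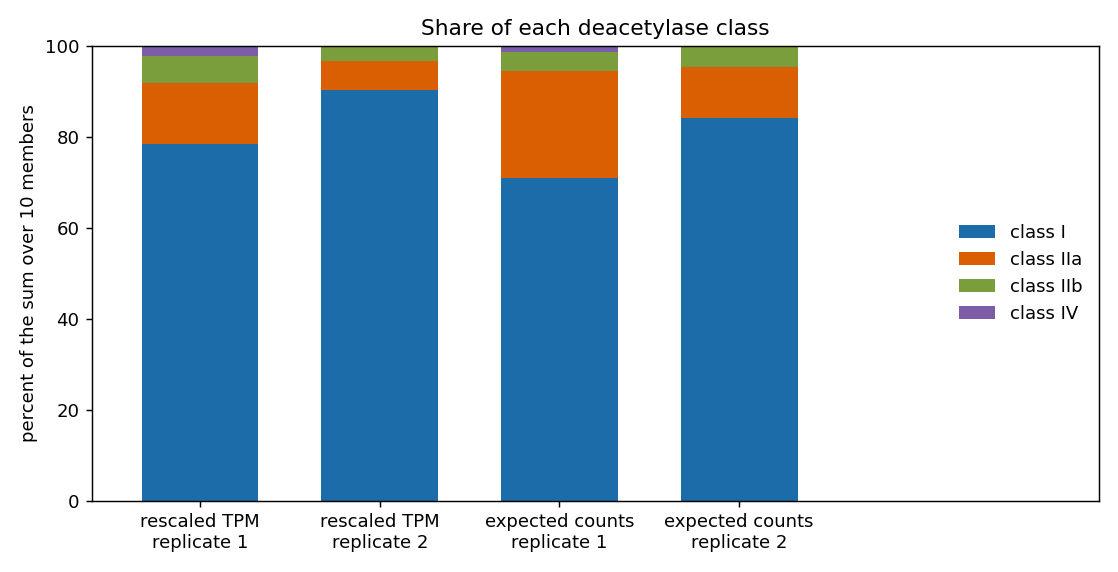
Share of each deacetylase class in the summed level of the 10 members, in percent, for each library by rescaled TPM (left pair of bars) and by expected counts (right pair). Class I holds between 70.9% and 90.3% of every bar and class IIa between 6.42% and 23.6%.

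Counts scaled to 1000000 nuclear protein-coding counts, here called CPM, set the libraries side by side without the length term. Exact 95% intervals on them cover counting error only, since the reads carry no molecular identifiers and are not independent molecules. Hdac1 had 59.9 and 59.8 CPM, and Hdac2 had 55.1 and 60.6. Hdac3 had 36.0 (interval 30.6 to 42.0) in replicate 1 and 53.1 (47.8 to 58.9) in replicate 2. The family as a whole had 215 and 212, so its summed share of counts was nearly the same in both libraries while single members moved.

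Hdac4 had 23.0 CPM in replicate 1 (18.7 to 27.9) and 6.31 in replicate 2 (4.57 to 8.50). Hdac7 had 16.8 (13.2 to 21.1) and 9.10 (6.97 to 11.7). Hdac8 ran the other way, with 1.37 (0.501 to 2.97) and 5.43 (3.82 to 7.48). Hdac10, with 1.82 (0.786 to 3.59) and 0 (0 to 0.541), and Hdac11, with 2.96 (1.58 to 5.06) and 0.293 (0.0355 to 1.06), were higher in replicate 1. The intervals of the libraries did not overlap for 6 of the 10 members, Hdac3, Hdac4, Hdac7, Hdac8, Hdac10 and Hdac11, and for 43.7% of the 12608 nuclear protein-coding genes with a count in either library. Of the members that averaged 10 or more counts, 4 of 8 did not overlap, beside 48.2% of such genes.

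After TMM scaling (an edgeR normalisation of library size), the log2 ratio of replicate 2 over replicate 1 was -0.01 for Hdac1, 0.13 for Hdac2 and 0.55 for Hdac3. None of these 3 members, the only ones with a mean of at least 100 counts, were over 1.5 times apart, whereas 23.1% of the 5536 genes at that depth were. With the minimum lowered to 10 counts, 3 of 8 members were over 1.5 times apart, beside 42.0% of 10238 genes. These were Hdac4 at a log2 ratio of -1.82, Hdac7 at -0.87 and Hdac8 at 1.74. Hdac5 (-0.43) and Hdac6 (0.43) stayed within the bound.

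The same ratio in rescaled TPM was -0.17 for Hdac1, -0.30 for Hdac2, 0.56 for Hdac3, -0.58 for Hdac4, -1.49 for Hdac5, -0.91 for Hdac6, -1.41 for Hdac7 and 3.12 for Hdac8. Hdac2 and Hdac6 went in opposite directions by counts and by TPM, 2 of 8 members averaging 10 or more counts, beside 11.2% of 9973 genes. The length that the deposited tables assign to a gene, a mean over its transcripts weighted by their estimated abundance, differed between libraries for the same genes. It was 1140 and 2595 bases for Hdac6, 1252 and 1615 for Hdac2, 6581 and 2617 for Hdac4, and 2183 and 1074 for Hdac8. For Hdac1 it was 1805 and 1955, and for Hdac3 1887 and 1853. Hdac6 thus had the higher count in replicate 2, both raw and scaled, and the lower TPM there, where its assigned length was longer.

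**Figure D3:**
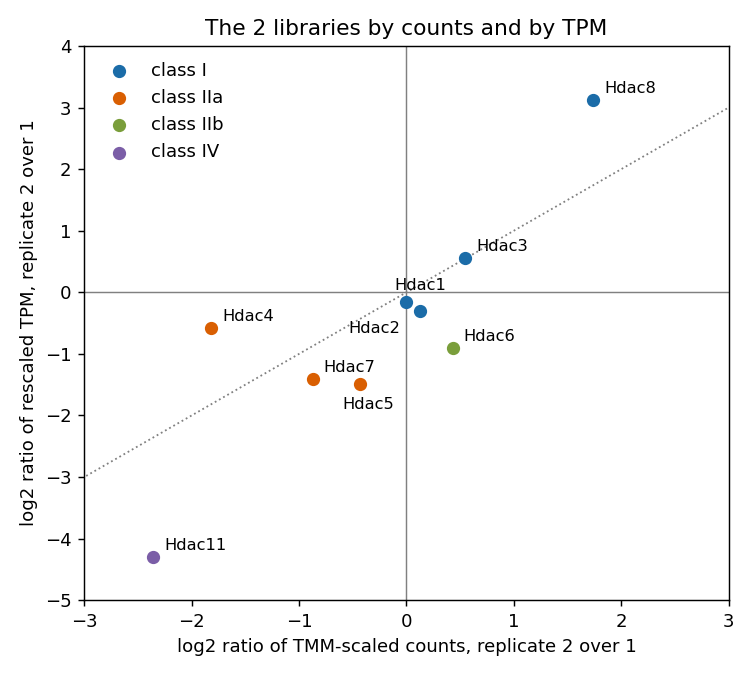
Log2 ratio of replicate 2 over replicate 1 for each member by TMM-scaled counts (horizontal) and by rescaled TPM (vertical), coloured by class. The dotted line marks equal ratios, and Hdac10 is not drawn because it had 0 counts in replicate 2. Hdac1, Hdac2 and Hdac3 lie within 0.56 of 0 on both axes, while Hdac8 and Hdac11 lie at opposite corners.

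The transcripts behind each gene were read from the deposited percent of the gene's TPM. Of the 86 member transcripts, 39 had counts in either library, among them 13 of 36 annotated as protein coding and 20 of 36 annotated as retained intron. Hdac1 was carried by its coding transcript Hdac1-201, with 80.8% of its TPM in replicate 1 and 93.3% in replicate 2. Hdac2 was led by the coding Hdac2-201 with 41.3% and 58.2%, followed by the processed transcript Hdac2-204 with 29.6% and 38.8%. The retained-intron transcript Hdac2-203 held 29.2% in replicate 1, from 25.5 counts, and was listed at 0 in replicate 2.

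Hdac3 was led in both libraries by the retained-intron transcript Hdac3-204, with 56.3% and 49.7%, ahead of the coding Hdac3-201 with 28.5% and 39.8%. The deposited length of Hdac3-204 is 1368 bases, against 1040 in GENCODE M21. Its type, taken from M21, may therefore not describe the transcript model that was quantified, which also limits the transcript shares of Hdac3 given below. By counts the pair stood at 62.6 and 129 for Hdac3-204 against 48.1 and 157 for Hdac3-201, so the longer coding transcript held more reads in replicate 2. Counting only transcripts annotated as coding, Hdac1 had 37.9 and 39.0 rescaled TPM, Hdac2 26.5 and 32.0, and Hdac3 7.70 and 15.7. By that measure Hdac1 was above Hdac2 in both libraries, the reverse of their order by whole-gene TPM. The other 7 members had at most 6.42 rescaled TPM in coding transcripts in either library.

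By TPM, the leading transcript of the class IIa genes differed between libraries. Hdac4 was led by the coding Hdac4-202 in replicate 1 (67.3%, 84 counts) and by the short retained-intron Hdac4-210 in replicate 2 (73.0%, 5.58 counts), where Hdac4-202 kept 27.0% of the TPM but 37.4 counts. Its retained-intron transcript Hdac4-209 held 22.3% in replicate 1 and 0 in replicate 2. Hdac5 was led by Hdac5-214 in replicate 1 (43.1%, 4.42 counts), a coding fragment of 427 bases, and by the full coding Hdac5-203 in replicate 2 (51.5%, 49.7 counts). The retained-intron Hdac5-218 held 14.7% and 21.7%. Hdac7 was led by the retained-intron Hdac7-211 in replicate 1 (54.2%, 22.1 counts) and by the coding Hdac7-203 in replicate 2 (78.9%, 56.2 counts). By expected counts, the coding Hdac4-202, Hdac5-203 and Hdac7-203 led their genes in both libraries. In replicate 1, Hdac5-203 had 19.4 counts and Hdac7-203 had 31.9.

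Hdac6 showed the widest change of transcripts. The retained-intron Hdac6-206 held 85.0% of its TPM in replicate 1, from 17.6 counts, and 0 in replicate 2. The coding Hdac6-202 held 10.2% and 53.6%, from 12.3 and 56.7 counts, and the retained-intron Hdac6-207 held 4.87% and 46.4%. Hdac6-206 begins inside the intron that splits the active-site stretch of the first domain, and holds only the last 180 bases of that intron. The exon side of its junction begins within that stretch.

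The junctions below run from the last 30 bases of an intron, in capitals, into the next 30 bases of exon, in lower case. They are shown for the 5 genes in which a retained-intron transcript changed most in its share between the libraries. All are the RNA strand, 5′ to 3′, on mm10.
Hdac2-203: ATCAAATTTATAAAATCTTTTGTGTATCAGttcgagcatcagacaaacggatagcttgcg
Hdac4-210: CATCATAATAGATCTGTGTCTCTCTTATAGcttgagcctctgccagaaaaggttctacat
Hdac6-206: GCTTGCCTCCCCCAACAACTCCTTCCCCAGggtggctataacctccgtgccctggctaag
Hdac7-211: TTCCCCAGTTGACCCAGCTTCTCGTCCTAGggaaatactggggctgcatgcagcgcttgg
Hdac11-203: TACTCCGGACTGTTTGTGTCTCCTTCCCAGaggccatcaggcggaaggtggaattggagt

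They lie at chr10:36998384-36998443 (plus strand) for Hdac2-203, chr1:91934657-91934716 (minus strand) for Hdac4-210, chrX:7938463-7938522 (minus strand) for Hdac6-206, chr15:97794036-97794095 (minus strand) for Hdac7-211 and chr6:91172135-91172194 (plus strand) for Hdac11-203. Each intron end reads AG, the usual splice acceptor. Each of these annotated transcripts begins in the intronic sequence, so the exon before the intron is not part of it. Intronic sequence makes up 242 of the 539 bases of Hdac2-203, 178 of 589 in Hdac4-210, 180 of 804 in Hdac6-206, 380 of 1572 in Hdac7-211 and 401 of 815 in Hdac11-203. The rest of each transcript is exon shared with the coding form, and the deposited tables do not say how many reads fell in the intronic bases.

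The lowest members had little coding signal. Hdac8 was carried by the processed transcript Hdac8-203 alone in replicate 1 (100%, 6 counts). In replicate 2 Hdac8-205, annotated for nonsense-mediated decay, held 73.1% from 15.7 counts and Hdac8-203 held 21.0% from 17.1 counts. The coding Hdac8-201 had 0 and 4.22 counts. Hdac10 had counts in replicate 1 only, split between the processed transcripts Hdac10-204 (58.9%) and Hdac10-206 (41.1%). Hdac11 was led by the retained-intron Hdac11-203 in replicate 1 (81.2%, 7 counts) and by the coding Hdac11-201 in replicate 2 (100%, 2 counts).

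Among the 9 members with counts in both libraries, the leading transcript was the same in 3 by TPM, Hdac1, Hdac2 and Hdac3, beside 64.7% of 7849 genes with several transcripts. By expected counts it was the same in 6 of 9, beside 73.4% of those genes. Over the whole family, coding transcripts held 49.2% of TPM in replicate 1 and 61.6% in replicate 2, beside 76.1% and 75.3% over all nuclear protein-coding genes. Retained-intron transcripts held 38.7% and 20.8% of the family, beside 18.4% and 19.2% of those genes, or 10.2% and 10.2% once the globin genes were left out. By expected counts coding transcripts held 68.2% and 75.5% of the family, beside 85.5% and 85.2%. Over the 2528 genes averaging 100 or more counts and an annotated retained-intron transcript, the median coding share of TPM was 77.9% (quartiles 51.4% and 96.1%) in replicate 1 and 79.8% (48.2% and 98.8%) in replicate 2. With shares summed from the rounded TPM, Hdac1, of the 3 members at that depth, lay above both medians at 80.8% and 93.4%. Hdac2, at 41.2% and 61.3%, lay below both medians, and Hdac3, at 28.6% and 39.8%, lay below both lower quartiles.

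**Figure D4:**
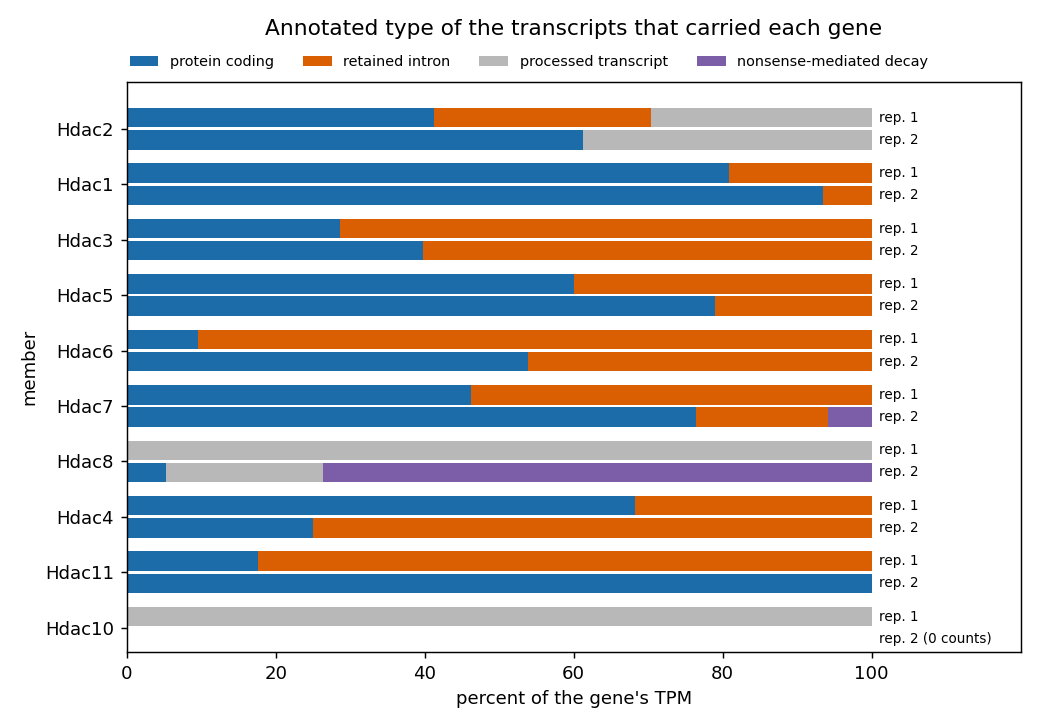
Percent of each member's TPM by annotated transcript type, with replicate 1 above replicate 2 for each gene. Hdac1 is mostly protein coding in both libraries (80.8% and 93.4%), Hdac3 mostly retained intron (71.4% and 60.2%), and Hdac6 has 90.5% in retained-intron transcripts in replicate 1 and 46.2% in replicate 2. Hdac10 has no bar in replicate 2, where it had 0 counts.

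Hdac1 has near-identical copies in the genome. The processed pseudogene Gm10093 on chromosome 17 matched Hdac1-201 at 99.4% over 1444 bases, with 9 differences. The stretch below holds 5 of them, in capitals. Reads over any of the 9 differences can be told apart, and reads elsewhere in the aligned bases may be shared between the genes. Hdac1 is given on its RNA strand at chr4:129522975-129523034 (minus strand).
Hdac1: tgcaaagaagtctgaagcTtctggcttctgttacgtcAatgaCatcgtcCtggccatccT
Gm10093: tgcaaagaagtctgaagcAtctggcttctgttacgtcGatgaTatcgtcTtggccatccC

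Gm10093 was given 3.93 and 23.5 expected counts, against 263 and 408 for Hdac1, and the deposited posterior SD of the Hdac1 count was 1.31 and 4.08. That SD within a library was small beside the count itself. The copies AC125456.1 (96.3% over 1450 bases) and Gm4864 (94.6% over 1469) had no matched row. The SD may therefore not cover reads from them. Other genes overlapping members could share reads only if strand was not used in counting, which the sources used here do not state, or where they lie on the same strand. Slc48a1, with 1849 and 2461 counts, lies on the other strand and overlaps Hdac7 by 29 bases. Gm37048 lies within Hdac4 on the other strand and had 19 and 3 counts. The other overlapping genes measured here had 0 counts in both libraries.

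The partners of the family were read from 12 lists of 96 genes in all, of which 86 were detected, beside 42.9% of all nuclear protein-coding genes, and 20 stood above Hdac2 by mean level. All 11 NuRD genes were detected, with a median of 41.4 ± 12.9 rescaled TPM. Mbd2, which binds methylated DNA, led them at 141 and 136, followed by the histone-binding Rbbp7 at 66.3 and 89.6 and Rbbp4 at 61.8 and 65.9. The remodeller Chd3 was lowest at 10.1 and 8.04. Of 13 Sin3 genes 12 were detected, with a median of 13.3 ± 0.0543. Arid4b led at 90.03 and 106, followed by Sap18 at 34.9 and 39.4 and the scaffold Sin3a at 24.6 and 31.0, and Brms1 was lowest at 11.1 and 0.588.

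Of 9 CoREST genes 8 were detected, with a median of 13.9 ± 1.57. The erythroid repressor Gfi1b, which recruits this complex, was highest at 47.3 and 47.7, followed by the scaffold Rcor1 at 21.8 and 27.5 and the demethylase Kdm1a at 15.8 and 23.5. The Rcor1 paralog Rcor2 had 0 and 1 counts. All 5 NCoR complex genes were detected, with a median of 17.0 ± 3.79. The scaffold Ncor1 had 153 and 289, Gps2 had 70.6 and 104, and Tbl1x was lowest at 14.3 and 9.22. In both libraries Ncor1 was well above its catalytic subunit Hdac3.

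All 3 MiDAC genes matched were detected, with a median of 11.4 ± 6.20. Dnttip1 had 133 and 80.4 rescaled TPM, Elmsan1 15.8 and 6.47, and Trerf1 5.35 and 7.06. All 11 histone acetyltransferases, which add the marks that deacetylases remove, were detected with a median of 23.9 ± 6.35. Ep300 led at 158 and 155, followed by Crebbp at 55.6 and 66.1 and Hat1 at 36.1 and 49.4, and Kat8 was lowest at 2.35 and 3.73. Ep300 alone was thus near the summed level of all 10 deacetylases. Among the BET readers of acetylated histones, Brd2 had 40.6 and 36.9 and Brd3 had 21.4 and 23.3, while the germ-cell Brdt had 0 and 1 counts.

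The partners of class IIa enzymes ranged widely in level. Of 4 MEF2 factors 3 were detected, with a list median of 10.7 ± 1.95. Mef2d had 38.1 and 38.4 rescaled TPM, Mef2a 13.5 and 17.8, and Mef2c 5.13 and 6.28, while Mef2b had 0 counts in both libraries. Of the 7 genes of 14-3-3 proteins, which hold phosphorylated class IIa enzymes in the cytoplasm, 6 were detected with a median of 94.6 ± 8.82. Ywhaz had 111 and 143, Ywhae 132 and 122, and Ywhah 93.2 and 122, and Sfn was lowest at 0.855 and 0.392. Of 11 class IIa kinases, 9 were detected with a median of 4.81 ± 0.150. Sik2 had 46.8 and 54.1, Prkd3 10.3 and 10.2, and Sik3 8.13 and 9.61, while Prkd1 had 0 counts in both libraries.

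Of 11 genes for non-histone substrates of deacetylases and the enzymes that acetylate them, 10 were detected, with a median of 61.1 ± 4.61. The alpha-tubulin genes Tuba1b, at 825 and 921 rescaled TPM, and Tuba4a, at 484 and 442, were highest, followed by the chaperone Hsp90aa1 at 245 and 259. How far reads are shared among the alpha-tubulin genes, which are alike in sequence, was not tested. The tubulin acetyltransferase Atat1 was lowest at 2.35 and 0.392, from 5 and 1 counts.

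Among the sirtuins, 5 of 7 were detected and the median was 8.19 ± 3.12 rescaled TPM. The nuclear Sirt7 had 26.7 and 22.4, Sirt1 had 19.2 and 22.2, and the mainly cytoplasmic Sirt2 had 21.2 and 17.8. The mitochondrial Sirt3 had 1.497 and 10.4, and Sirt4 had 5.99 and 3.14. Sirt6 had 0.642 and 0.981, and Sirt5 had 0 and 1 counts. The highest sirtuin thus stood below Hdac1 and Hdac2 in both libraries, and above every class IIa, IIb and IV member described here.

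**Figure D5:**
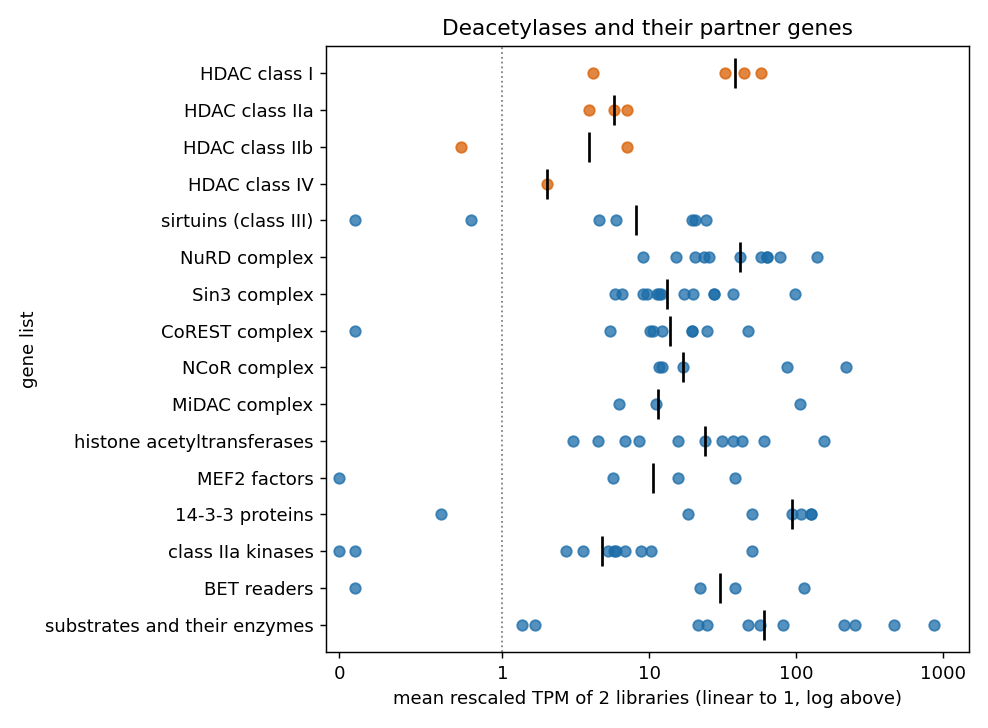
Mean rescaled TPM of 2 libraries for each gene of the 4 deacetylase classes (orange) and of the 12 partner lists (blue), on an axis that is linear to 1 and logarithmic above. Black ticks are the mean of the list medians in the 2 libraries and the dotted line marks the detection level of 1. The medians run from 2.02 for class IV to 94.6 for 14-3-3 proteins, with class I at 38.7 and class IIa at 5.74.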

How the data were processed

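Total RNA-seq of 2 erythroblast libraries was analysed from 1 gene table and 1 transcript table per library. Per the deposited read-me, these were quantified from a transcriptome alignment on mm10 with GENCODE M4. RSEM writes columns of these names. Neither aligner nor quantifier is named in the labels or headers read here. Deposited expected counts are unnormalised estimates per feature. The deposited TPM and FPKM are the authors' values over every row, mitochondrial rRNA and spike-ins included. The deposited posterior mean, posterior SD and interval bounds are scores from a single library each. The deposited isoform percent is the share of a gene's TPM in a transcript.

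Ensembl identifiers without version were matched to GENCODE M21 on the same build for symbols, types and coordinates, and 42462 of 43346 gene rows matched. TPM was rescaled over 21461 nuclear protein-coding genes (Python 3.11.15, pandas 2.3.3), and posterior values over their posterior means. Rounded expected counts went into edgeR 4.0.16, whose TMM factors (0.963 and 1.04) gave ratios with a prior count of 2 and a mean of at least 100 counts. DESeq2 1.42.0 size factors were an alternative. Of these steps, only the TMM ratios were tested on simulated counts, for genes with a mean of at least 100 counts. Exact 95% binomial intervals came from scipy 1.17.1. Sequences were read from GENCODE M21 transcripts, and active-site codons were found by script in the coding sequence, as a glycine pair followed by tyrosine or histidine.

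The members and gene lists were chosen with earlier results of these data known. All members were named, and from each partner list the 3 highest and the lowest by mean level, and all sirtuins; some genes that this rule names are not reported here. Transcripts were named where they held at least 20% of a gene or led it. Hdac8-201, the sequences shown, the comparison of exact intervals and the overlap checks were chosen after their values were seen. With 2 libraries no gene can be named for a like pattern. The MiDAC list held 4 symbols, of which 3 matched. The unmatched symbol, Mideas, stands for the gene that was matched as Elmsan1. With 1 group no test between conditions was made. The genes without a row in the tables were not analysed here.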

Additional observations from a re-analysis of the deposited data

How the results depend on the processing

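Of 121 recomputed values, 90 moved by less than the spread between libraries or within 1.5 times, and 31 moved further. Values that left out a library could only fall among the 90, since with 2 libraries each lies within the SD of the mean. The log2 ratio by deposited TPM was also equal by construction. So were the class shares and the log2 ratio by FPKM but for rounding, since FPKM is proportional to TPM within a library. A reversal could be called only for the log2 ratio of class I to class IIa, and 0 were called. The order of Hdac1 and Hdac2 by coding transcripts was not among the 121. Detected members numbered 3 at a deposited TPM of 1, at an FPKM of 1 and at a rescaled TPM of 5, and detected partner genes numbered 40 at a deposited TPM of 1. The class IIa share became 15.6% by the posterior mean of TPM and 17.3% by expected counts, and the class IIb share 1.92% by coding transcripts. The log2 ratio of class I to class IIa became 2.26 by expected counts. Members over 1.5 times apart numbered 3 with a mean of at least 10 counts and 5 with no minimum, against 0. Members with the same leading transcript numbered 6 by expected counts, against 3. Leaving out either library gave a class I share of 78.5% to 90.3%, a class IIa share of 6.42% to 13.3%, a class IIb share of 3.14% to 6.05%, a class IV share of 0.126% to 2.18%, and a log2 ratio of 2.56 to 3.82. The causes of these moves were not tested. Rescaled over all genes except mitochondrial ones, the mean levels of all 10 members were lower by construction, because the TPM was divided by a larger sum. They were 21.1 for Hdac2, 16.1 for Hdac1, 12.2 for Hdac3, 2.52 for Hdac6, 2.03 for Hdac7 and 1.41 for Hdac4. Hdac5 at 2.51, Hdac8 at 1.58, Hdac11 at 0.697 and Hdac10 at 0.256 fell too. They were counted as unmoved because the fall was within their SD between libraries. By the posterior mean, Hdac5 had 15.1, Hdac4 7.18 and Hdac10 1.84. The posterior mean was higher than the point estimate for 8 of 10 members. Depth limits the lower members: Hdac8, Hdac10 and Hdac11 rested on at most 37 counts a library. No paired analysis was possible because both libraries belong to 1 group.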
